A study of Mus musculus with 8 samples.

Results

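The genes described here encode potassium and sodium channels. They are the genes of the deposited tables whose mouse symbols begin with Kcn or with Scn followed by the number and letter of a channel subunit, without names ending in os. The rule matched 110 of the 53090 genes in each table. Of these, 107 are channel genes (93 Kcn and 14 Scn, pore subunits and their accessory subunits), and 3 (*Kcnq1ot1*, *Kcnmb4os1* and *Kcnmb4os2*) are noncoding by name and were counted apart. Total RNA was sequenced from 4 *Nae1* cKO and 4 WT sciatic nerves taken at P7, when mice are 7 days old. *Nae1* cKO mice carry floxed *Nae1* alleles on both chromosomes (Nae1 f/f) and Cre recombinase, which is expressed in Schwann cells and removes exon 4. The paper defines controls, labelled WT, as littermates without Cre that carry 1 or both floxed alleles, so the allele is shared by both groups. The labels give no sex and do not say whether each library came from a separate mouse. P-values therefore measure only the spread between these libraries.

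A sodium channel consists of a pore-forming alpha subunit (Scn genes ending in a) and beta subunits (Scn genes ending in b) that anchor it and change its gating. Along a myelinated axon, sodium channels are gathered at the node of Ranvier, and Kv1 potassium channels lie under the myelin at the juxtaparanode. Schwann cells express potassium channels of their own. Inward rectifiers (Kir, Kcnj genes) and tandem-pore-domain leak channels (K2P, Kcnk genes) set the resting potential and take up potassium. Transcripts in nerve RNA come mainly from Schwann cells, fibroblasts, immune and vascular cells, because the neuronal cell bodies lie outside the nerve.

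Libraries held 12962798 to 13855366 expected counts in *Nae1* cKO nerves and 13508752 to 14766770 in WT nerves. Channel genes took 0.190% to 0.251% of these in *Nae1* cKO nerves and 0.206% to 0.226% in WT nerves. *Nae1* mRNA, which also holds the exons that Cre leaves in place, was at 43.8 to 57.2 CPM (counts scaled to library size after TMM scaling) in *Nae1* cKO nerves and at 77.7 to 89.8 CPM in WT nerves. Markers of myelinating Schwann cells were present in every nerve, and all 5 were lower in *Nae1* cKO nerves. Of 6 markers of the Schwann lineage, 1 was higher and 2 were lower. Their sum was 2275 to 2630 CPM in *Nae1* cKO nerves and 2754 to 2978 CPM in WT nerves. Summed markers of skeletal muscle ranged over 64.3 to 178.3 CPM in *Nae1* cKO nerves and 130.0 to 2114 CPM in WT nerves, where nerves L4 and K1 (1291 CPM) stood highest, and 4 of 10 muscle markers were lower. Of 5 fibroblast markers 4 were higher, and their sum was 17080 to 18920 CPM in *Nae1* cKO nerves and 13690 to 16780 CPM in WT nerves. Of 5 endothelial markers 3 were lower, with a sum of 151.3 to 182.9 CPM in *Nae1* cKO nerves and 198.7 to 249.4 CPM in WT nerves. The part of these cells in the channel values was not tested. For several channel genes described here, 1 of the *Nae1* cKO nerves (K2) lay far from the rest. This was not particular to channel genes. Over the genes tested, chi-square per gene was 43.1 to 57.9 between K2 and each other *Nae1* cKO nerve. Between those other nerves it was 4.11 to 9.88. In whole nerve, fewer cells of a type and less RNA per cell cannot be told apart.

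Of the 107 channel genes, 54 had enough counts to be tested. At an adjusted p under 0.05 (edgeR's quasi-likelihood test, Benjamini-Hochberg adjustment over 17090 genes), 10 were higher and 11 lower in *Nae1* cKO nerves. This is 38.9% of those tested, 18.5% higher and 20.4% lower. Over all 17090 genes 26.4% were called, 14.1% higher and 12.3% lower. A change over 2-fold was called for 14 channel genes (25.9%), 9 higher and 5 lower, against 6.75% of all genes. The CPM ranges of the groups did not overlap for 18 of the 54, against 28.6% of all genes. The median log2 fold change was 0.19 for channel genes and 0.01 for all genes.

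A gene can pass the filter on low counts through the group in which it is high. Of the 54, 41 exceeded the limit in all 8 nerves, *Kcna3* and *Kcng3* only in *Nae1* cKO nerves and *Kcnip2* only in WT nerves, and 10 in part of the nerves. Counts over the 54 therefore give no support on their own. Restricted to genes with at least 10 counts in every library, 41 channel genes were left, of which 4 were called higher and 10 lower (34.1%), against 28.3% of 15217 genes. Of these 41, 8 (19.5%) passed 2-fold, against 5.61%. Without WT nerves K1 and L4, the controls with the most muscle RNA, 7 channel genes were higher and 6 lower of 58 tested (22.4%), against 13.5% of 17749 genes.

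**Figure D1:**
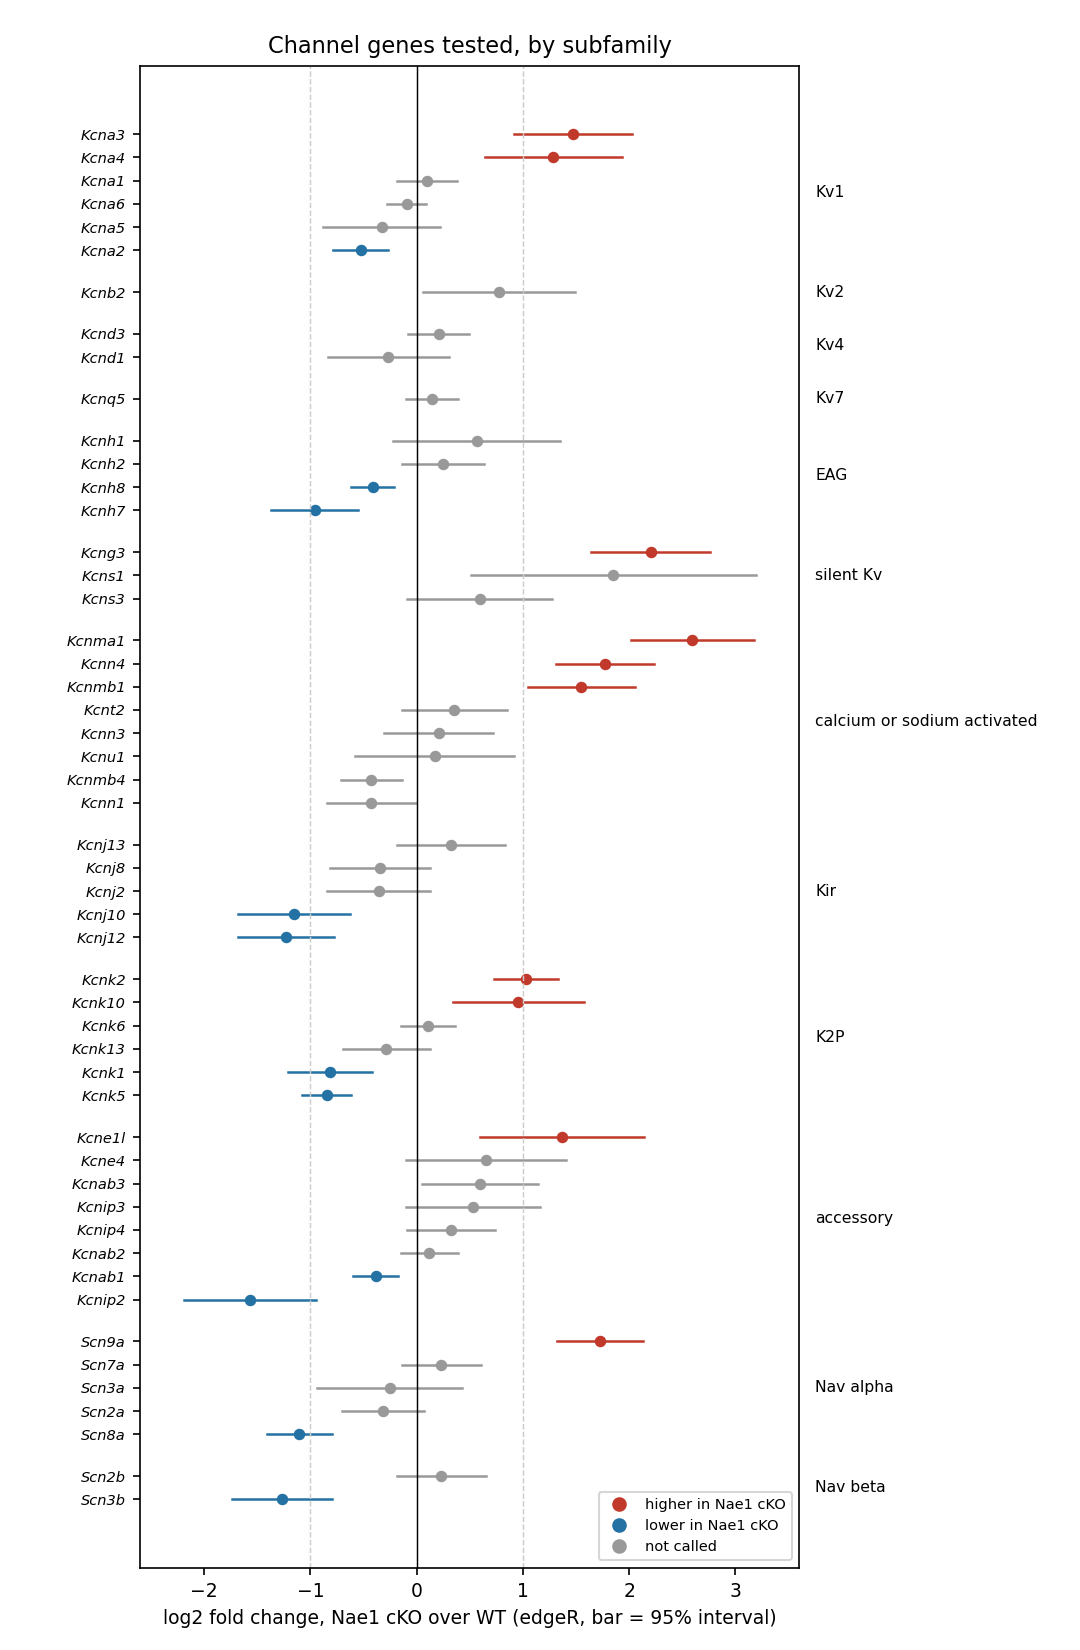
Log2 fold change of 51 of the 54 tested channel genes, *Nae1* cKO over WT, with approximate 95% intervals, grouped by subfamily. The intervals are a normal approximation from the SE and can be narrower than the edgeR test implies. Red points are the 10 genes called higher, blue points the 11 called lower and grey points the genes that were not called, with *Kcnma1* farthest to the right and *Kcnip2* farthest to the left.

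Among the sodium channel alpha subunits, *Scn9a* rose and *Scn8a* fell. *Scn9a* encodes Nav1.7, known from peripheral sensory neurons, and *Scn8a* encodes Nav1.6, the main alpha subunit of the mature node. *Scn9a* (ENSMUSG00000075316.11) had 11.4, 19.1, 15.4 and 17.2 CPM in *Nae1* cKO nerves, against 3.80, 3.98, 4.66 and 6.67 CPM in WT nerves. The groups did not overlap, and the log2 fold change was 1.73 ± 0.21 (SE, n = 4 nerves each, edgeR adjusted p = 7.22e-05), or 3.31-fold. *Scn8a* (ENSMUSG00000023033.14) had 5.0, 4.11, 3.67 and 4.25 CPM in *Nae1* cKO nerves, against 7.74, 10.5, 8.61 and 9.77 CPM in WT nerves. In CPM no *Nae1* cKO value reached the WT range, and the fold change was -1.10 ± 0.16 on the log2 scale (SE, n = 4 nerves each, edgeR adjusted p = 0.000271), or 2.15-fold. By TPM the groups overlapped, at 0.5 to 1.17 in *Nae1* cKO nerves and 1.12 to 1.95 in WT nerves. Within a nerve, TPM of *Scn9a* was 2.37 ± 1.35 times that of *Scn8a* in *Nae1* cKO nerves and 0.266 ± 0.109 times in WT nerves (SD, n = 4 each). TPM is scaled by the transcript length that RSEM assigned, which for *Scn8a* was 3445 to 6672 bases in *Nae1* cKO nerves and 3041 to 6240 in WT nerves. In *Nae1* cKO nerve L8, with the longest, the ratio was 4.32, against 1.19 to 2.0 in the rest of its group. The genes of this and the later ratios were chosen after the values were seen, so no p is given for them.

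*Scn9a* lies on chromosome 2 of GRCm38 (minus strand, 66480080 to 66634962) in a run of sodium channel genes with *Scn3a*, *Scn2a*, *Scn1a* and *Scn7a*. None of its neighbours was called. *Scn7a*, which encodes the sodium sensor NaX and marks nonmyelinating Schwann cells, had 531, 296, 329 and 290.4 CPM in *Nae1* cKO nerves, against 306, 269, 295.5 and 362 CPM in WT nerves. The groups overlapped, nerve K2 stood alone at the top, and the log2 fold change was 0.23 ± 0.19 (SE, edgeR adjusted p = 0.421). Of the other markers of these cells, *Ncam1* and *L1cam* were higher, *Ngfr* was not called and *Gfap* was below the filter. *Scn2a*, known as a channel of immature nodes, had 6.34 to 10.2 CPM in *Nae1* cKO nerves and 7.31 to 11.8 CPM in WT nerves and was not called (edgeR adjusted p = 0.267). Its log2 fold change was -0.32 with all nerves and -0.51 without *Nae1* cKO nerve K2 (edgeR adjusted p = 0.0371). *Scn3a* stayed at 0.836 to 1.19 CPM in *Nae1* cKO nerves and 0.715 to 2.05 CPM in WT nerves. *Scn1a* had 6.11 to 18.0 counts in *Nae1* cKO nerves and 2.04 to 10 in WT nerves and did not enter the test.

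The 250 bases before the start of each gene with opposite changes are shown, from RefSeq on GRCm38.p6, to allow their promoters to be compared. *Scn8a* has more than 1 annotated start, and the first is given (from chr15:100870395-100870694, plus strand). The *Scn9a* window is on the minus strand (from chr2:66634913-66635212). Capitals mark matches, on either strand, to the core of the antioxidant response element (TGACNNNGC) or to the site of EGR factors (GCGNGGGCG).

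Scn8a: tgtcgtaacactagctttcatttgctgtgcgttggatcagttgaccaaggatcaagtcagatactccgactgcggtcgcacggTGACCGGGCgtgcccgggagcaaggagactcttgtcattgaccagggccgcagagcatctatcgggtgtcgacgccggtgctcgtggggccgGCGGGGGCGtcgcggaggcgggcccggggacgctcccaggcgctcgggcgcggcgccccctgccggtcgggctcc

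Scn9a: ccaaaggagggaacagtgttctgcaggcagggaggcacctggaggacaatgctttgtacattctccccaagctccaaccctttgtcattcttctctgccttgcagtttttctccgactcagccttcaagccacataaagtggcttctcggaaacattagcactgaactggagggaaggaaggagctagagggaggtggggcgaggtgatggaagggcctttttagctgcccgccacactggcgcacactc

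In the *Scn8a* stretch the capitals begin 167 bases (antioxidant response element core) and 75 bases (EGR site) before the start. The *Scn9a* stretch held neither, nor the AP-1 site (TGANTCA). The window of the other *Scn8a* start (chr15:100936021-100936320) also held none of these motifs. Over 32851 RefSeq windows, each of 250 bases before and 50 after a start, 12.4% held the first motif, 5.55% the EGR site and 7.81% the AP-1 site. A match is a description of letters and not a measured site.

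Among the beta subunits, *Scn3b* fell. By TPM it was the most abundant Scn gene after *Scn7a*. *Scn3b* (ENSMUSG00000049281.16) had 92.1, 50.02, 50.9 and 48.0 CPM in *Nae1* cKO nerves, against 184, 113, 144 and 139 CPM in WT nerves. The groups did not overlap, although nerve K2 lay well above the other *Nae1* cKO nerves. *Scn3b* changed by -1.27 ± 0.24 on the log2 scale (SE, n = 4 nerves each, edgeR adjusted p = 0.005), and -1.55 without K2. *Scn2b* had 1.88 to 2.58 CPM in *Nae1* cKO nerves and 1.51 to 2.10 CPM in WT nerves and was not called. Within a nerve, TPM of *Scn3b* was 0.345 ± 0.0275 times that of *Scn7a* in *Nae1* cKO nerves and 0.952 ± 0.17 times in WT nerves (SD, n = 4 each).

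*Scn10a*, *Scn11a* and *Scn4a* had few counts. *Scn10a* and *Scn11a*, markers of nociceptive neurons, had 0 to 3 counts in *Nae1* cKO nerves and 0 to 4 in WT nerves. *Scn4a*, the channel of skeletal muscle, had 0, 1, 0 and 2 counts in *Nae1* cKO nerves K2, L1, L5 and L8, against 17, 4, 16 and 1 in WT nerves K1, L3, L4 and L9. The 2 high values were in the controls with the most muscle RNA. *Scn4b* had 2 to 14 counts in *Nae1* cKO nerves and 1 to 30 in WT nerves, with its highest values in the same controls, 16 in K1 and 30 in L4. The part of muscle RNA in these values was not tested.

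Of the Kv1 genes, which encode the pore of the juxtaparanodal and related delayed rectifiers, *Kcna3* and *Kcna4* rose and *Kcna2* fell. *Kcna1* and *Kcna6* were not called. *Kcna1* (Kv1.1) was the most abundant channel gene. It had 606, 434, 431 and 409.7 CPM in *Nae1* cKO nerves, against 525, 357, 413 and 464 CPM in WT nerves. The groups overlapped. On the log2 scale the change was 0.10 ± 0.14 (SE, edgeR adjusted p = 0.674), and -0.06 without nerve K2. *Kcna2* (Kv1.2), its partner in the same channel tetramers, had 761, 502, 512 and 496 CPM in *Nae1* cKO nerves, against 832, 741, 836 and 859.5 CPM in WT nerves. Only nerve K2 reached the WT range. The fitted log2 change of *Kcna2* was -0.53 ± 0.13 (SE, n = 4 nerves each, edgeR adjusted p = 0.0118), and the exact two-sided permutation test gave p = 0.0571, where the smallest p for 4 against 4 is 0.0286. Without WT nerves K1 and L4 the log2 fold change was -0.50 ± 0.18 (SE) and the call was lost (edgeR adjusted p = 0.104).

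The ratio of *Kcna2* to *Kcna1* within a nerve was alike in K2 and the other *Nae1* cKO nerves. By TPM, which is scaled to transcript length, *Kcna2* was at 0.423, 0.387, 0.401 and 0.407 times *Kcna1* in *Nae1* cKO nerves, against 0.528, 0.699, 0.683 and 0.626 times in WT nerves. All *Nae1* cKO nerves lay below all WT nerves. *Kcna6* (Kv1.6) was at 0.271 to 0.328 times *Kcna1* in *Nae1* cKO nerves and 0.266 to 0.411 times in WT nerves, with overlapping groups. Its CPM was 132 to 175 in *Nae1* cKO nerves and 146 to 167 in WT nerves (log2 fold change -0.09, edgeR adjusted p = 0.513), and without nerve K2 it was called lower by -0.20 on the log2 scale (edgeR adjusted p = 0.041).

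**Figure D2:**
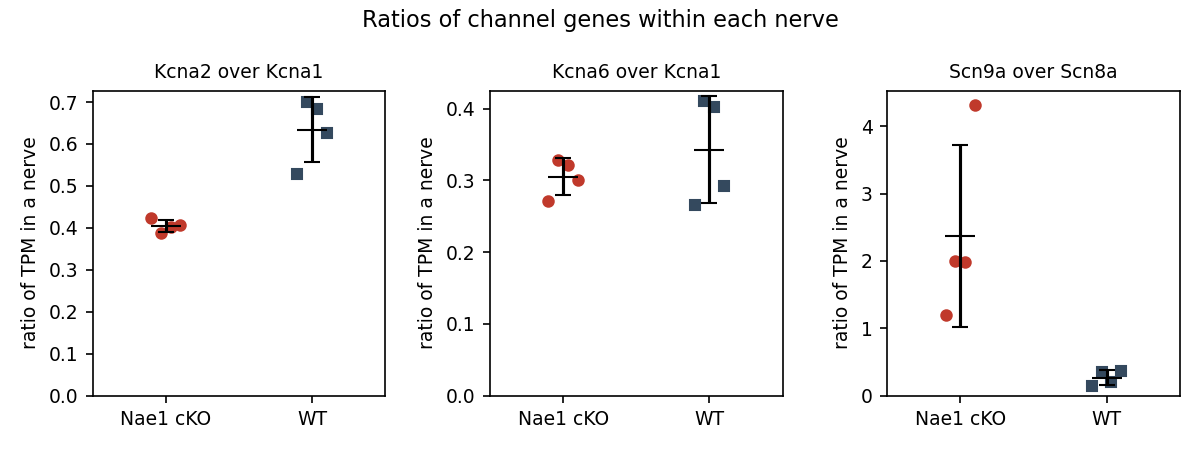
Ratio of TPM of 2 channel genes within each nerve, for *Nae1* cKO (left, circles) and WT nerves (right, squares), with the mean and SD in black (n = 4 nerves each). The ratio of *Kcna2* to *Kcna1* was 0.404 on average in *Nae1* cKO nerves and 0.634 in WT nerves without overlap, whereas that of *Kcna6* to *Kcna1* overlapped between the groups.

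*Kcna3* encodes Kv1.3, a channel known from T cells and macrophages. It lies near *Kcna2* on chromosome 3, and these genes were called in opposite directions. *Kcna3* had 20 to 30 counts (1.49 to 2.09 CPM) in *Nae1* cKO nerves and 5 to 10 counts (0.397 to 0.724 CPM) in WT nerves. Without overlap of the groups, the log2 fold change was 1.47 ± 0.28 (SE, n = 4 nerves each, edgeR adjusted p = 0.00218). *Kcna4* (Kv1.4, a fast-inactivating A-type channel) had 13.3, 4.67, 6.32 and 5.92 CPM in *Nae1* cKO nerves, against 3.73, 3.04, 2.01 and 3.58 CPM in WT nerves. All *Nae1* cKO values lay above the WT values, with the largest in K2. For *Kcna4* the log2 fold change was 1.29 ± 0.33 (SE, edgeR adjusted p = 0.0137), 0.86 without K2, and without WT nerves K1 and L4 it was 1.18 ± 0.43 (SE) and no longer called (edgeR adjusted p = 0.116). *Kcna5* had 1.16 to 1.64 CPM in *Nae1* cKO nerves and 1.02 to 2.22 CPM in WT nerves and was not called.

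Macrophage markers moved in the same direction as *Kcna3*. Of 5 markers, 4 were higher (*Csf1r*, *Adgre1*, *Ctss* and *Aif1*), and their sum was 190.3 to 203.1 CPM in *Nae1* cKO nerves and 87.9 to 101.8 CPM in WT nerves. The T cell markers *Cd3e* and *Cd3d* were at 0 to 0.136 CPM in *Nae1* cKO nerves and 0 to 0.145 CPM in WT nerves, none of the 3 markers on that list was tested, and their sum was 0.209 to 0.522 CPM in *Nae1* cKO nerves and 0.159 to 0.287 CPM in WT nerves. The part of macrophage RNA in the change of *Kcna3* was not tested.

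The calcium-activated channels held the largest increase among the tested channel genes. *Kcnma1* encodes the pore of the large-conductance BK channel, which opens on depolarisation and calcium. *Kcnma1* (ENSMUSG00000063142.15) had 10.6, 13.1, 12.4 and 11.6 CPM in *Nae1* cKO nerves, against 2.995, 2.10, 2.08 and 0.636 CPM in WT nerves. The groups were far apart. Its log2 fold change was 2.60 ± 0.29 (SE, n = 4 nerves each, edgeR adjusted p = 6.5e-05), or 6.04-fold by count. By TPM the means differed 10-fold. The mean transcript length that RSEM assigned to *Kcnma1*, by which TPM is scaled, was 3135 to 3954 bases in *Nae1* cKO nerves and 3548 to 5723 bases in WT nerves. TPM and count fold changes differed by over 0.4 on the log2 scale for *Kcnb2*, *Kcnu1* and *Scn3a* as well, none of them called.

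The BK beta subunits differed from each other. *Kcnmb1*, the beta subunit known from smooth muscle, had 1.87 to 2.65 CPM in *Nae1* cKO nerves and 0.652 to 1.03 CPM in WT nerves (log2 fold change 1.55 ± 0.26, SE, edgeR adjusted p = 0.000773). *Kcnmb1* lies antisense within *Kcnip1*, which had 0 to 3 counts in any nerve. *Kcnmb4*, the beta subunit of neurons and glia, was much more abundant, at 41.8, 28.2, 33.5 and 27.0 CPM in *Nae1* cKO nerves, against 47.1, 37.9, 38.6 and 51.6 CPM in WT nerves. The groups overlapped through K2. The log2 fold change of *Kcnmb4* was -0.43 ± 0.15 (SE, edgeR adjusted p = 0.0541), and 7 of 20 alternative fits called it lower, among them those without *Nae1* cKO nerve K2 or WT nerve L3. Of the 7 mural cell markers, which include *Kcnj8*, *Cspg4* was higher and the other 6 were not called, and their sum was 436.8 to 469.5 CPM in *Nae1* cKO nerves and 420.9 to 496.4 CPM in WT nerves.

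*Kcnn4* encodes KCa3.1, an intermediate-conductance channel known from blood and immune cells. *Kcnn4* (ENSMUSG00000054342.8) had 4.25, 8.08, 7.07 and 8.16 CPM in *Nae1* cKO nerves, against 2.41, 1.67, 2.22 and 1.75 CPM in WT nerves. There was no overlap in CPM, with K2 the lowest *Nae1* cKO nerve. By TPM the groups overlapped, with K2 at 1.05 and WT nerve L4 at 1.83. The log2 fold change was 1.77 ± 0.24 (SE, n = 4 nerves each, edgeR adjusted p = 0.000165), or 3.41-fold. The summed macrophage markers given above were also higher in *Nae1* cKO nerves. Fibroblast markers, given above, were mostly higher too, and the part of either cell type in the change of *Kcnn4* was not tested. The small-conductance genes *Kcnn1* (1.60 to 2.72 CPM in *Nae1* cKO nerves and 2.58 to 3.43 CPM in WT nerves) and *Kcnn3* (10.1 to 25.02 CPM in *Nae1* cKO nerves and 11.3 to 19.1 CPM in WT nerves) were not called.

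**Figure D3:**
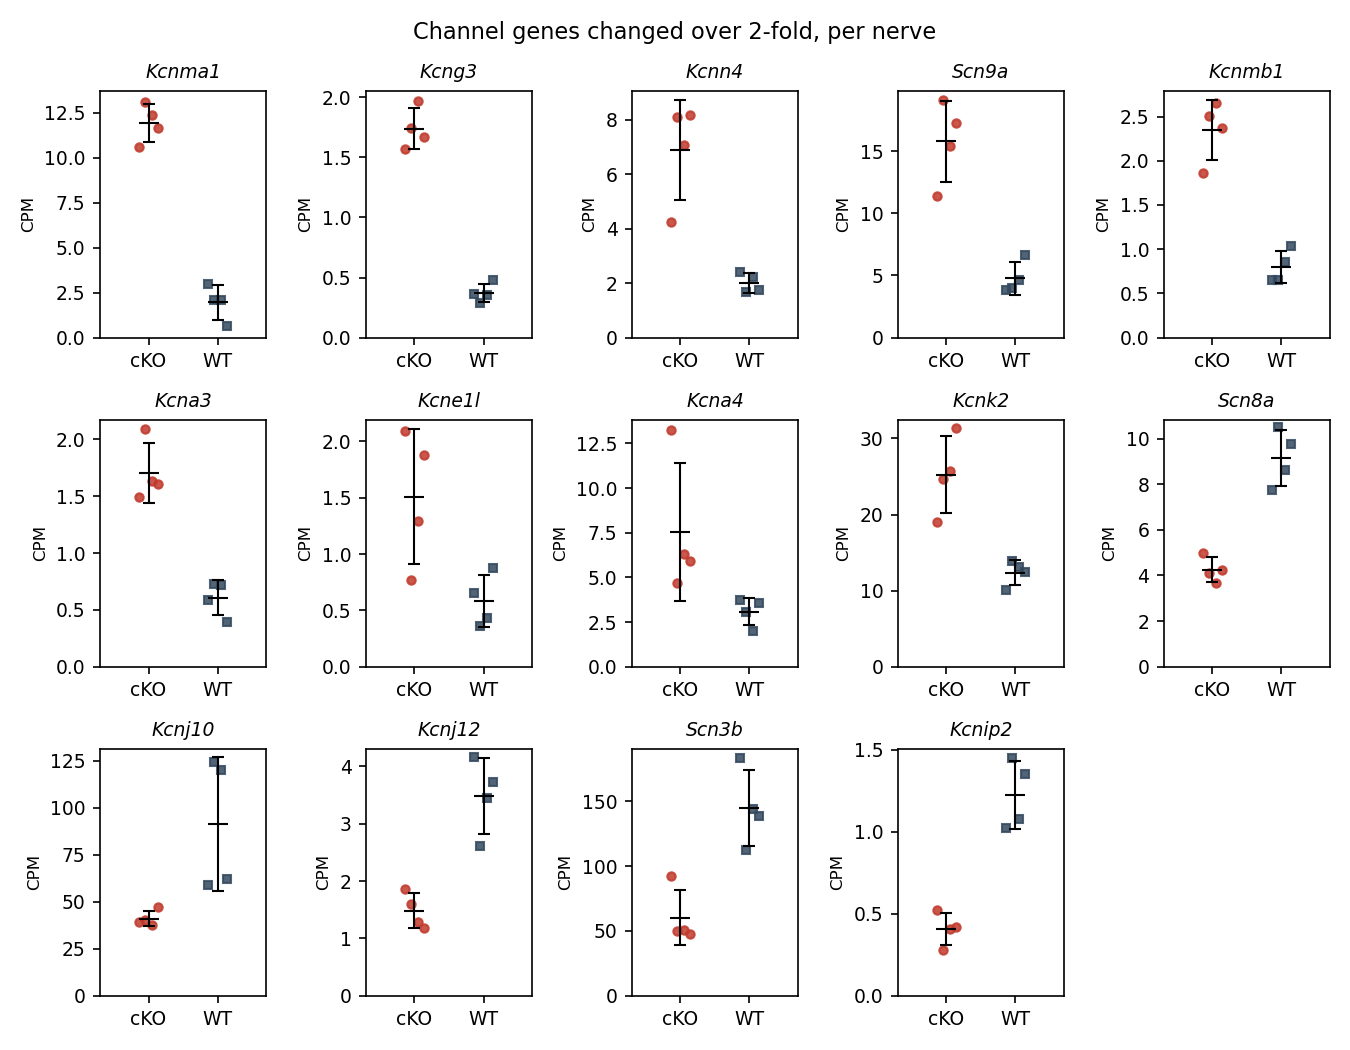
CPM per nerve of the 14 channel genes called over 2-fold, each panel with its own axis from 0, *Nae1* cKO nerves (cKO) left of WT nerves, with the mean and SD in black (n = 4 nerves each). The 9 genes from *Kcnma1* to *Kcnk2* were higher and the 5 from *Scn8a* to *Kcnip2* lower in *Nae1* cKO nerves, and only in *Kcne1l* did the groups overlap.

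Among the silent Kv subunits, which form channels together with Kv2 subunits, *Kcng3* rose. *Kcng3* (Kv6.3, ENSMUSG00000045053.1) had 21, 25, 29 and 24 counts in *Nae1* cKO nerves, against 5, 4, 5 and 6 counts in WT nerves. The low counts were alike within each group, and the log2 fold change was 2.20 ± 0.29 (SE, n = 4 nerves each, edgeR adjusted p = 0.000138), or 4.60-fold. *Kcns1* had 15, 19, 18 and 6 counts in *Nae1* cKO nerves, against 3, 11, 1 and 0 in WT nerves. The groups overlapped through WT nerve L3, and *Kcns1* was not called (log2 fold change 1.85, edgeR adjusted p = 0.0684). Without L3 it was called (log2 fold change 3.25, edgeR adjusted p = 0.00614). The Kv2 gene *Kcnb2* had 1.05 to 3.81 CPM in *Nae1* cKO nerves and 1.09 to 1.39 CPM in WT nerves and was not called.

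The stretch before the start of *Kcng3* (RefSeq, GRCm38.p6, minus strand, from chr17:83631846-83632145) is shown because it held the most motif matches of the called channel genes, each an EGR site in capitals.

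Kcng3: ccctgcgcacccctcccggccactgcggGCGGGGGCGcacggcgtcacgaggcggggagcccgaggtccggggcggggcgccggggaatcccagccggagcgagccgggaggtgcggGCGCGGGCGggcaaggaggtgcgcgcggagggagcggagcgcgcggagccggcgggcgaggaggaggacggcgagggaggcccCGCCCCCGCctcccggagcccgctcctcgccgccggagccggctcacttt

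The matches begin 222, 133 and 50 bases before the start. G and C made up 82.0% of the *Kcng3* window, the highest share among the windows of the called channel genes. Apart from the letter N, the EGR site itself holds only G and C. The part of base composition in these matches was not tested. Of the 21 called genes 20 had a RefSeq window, and some genes had several. The 10 higher genes had 14 windows, the 10 lower genes 13 and the 23 tested genes without a call 32. A gene was counted if any of its windows matched, whereas the shares over all windows given above are per window. The EGR site was found in *Kcna4*, *Kcng3* and *Kcnk2* among the 10 higher genes, in *Scn8a* among the 10 lower genes with a window, and in *Kcnt2* and *Scn7a* among 23 genes that were tested and not called. The antioxidant response element core was found in *Kcna4* among the higher genes, in *Kcnab1* and *Scn8a* among the lower genes and in 5 of the 23, and the AP-1 site in *Kcnk2* among the higher genes, in none of the lower genes and in 2 of the 23.

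Of the other voltage-gated potassium channels, *Kcnh7* and *Kcnh8* of the EAG family fell. *Kcnh7* (ERG3) had 5.15, 3.34, 5.58 and 5.44 CPM in *Nae1* cKO nerves, against 10.5, 6.59, 9.47 and 11.5 CPM in WT nerves. The groups did not overlap (log2 fold change -0.96 ± 0.21, SE, n = 4 nerves each, edgeR adjusted p = 0.00458). *Kcnh8* (ELK1) had 18.9 to 21.7 CPM in *Nae1* cKO nerves and 24.8 to 30.7 CPM in WT nerves, also without overlap in CPM (log2 fold change -0.41 ± 0.10, SE, edgeR adjusted p = 0.00983). Without WT nerves K1 and L4 the calls of both were lost, at -0.89 ± 0.27 for *Kcnh7* and -0.32 ± 0.12 for *Kcnh8* on the log2 scale (SE, edgeR adjusted p = 0.06 and 0.116). Both were also lost with limma on log2(TPM + 1) and log2(TPM + 0.1). *Kcnh8* further lost its call on log2(FPKM + 1) and with scaling by library totals. Its groups overlapped by TPM, at 3.25 to 5.34 in *Nae1* cKO nerves and 4.02 to 6.21 in WT nerves. *Kcnh1* was not called. The Kv7 gene *Kcnq3*, whose protein is known at nodes, had 2 to 5 counts in *Nae1* cKO nerves and 1 to 9 in WT nerves and was not tested. *Kcnq5* had 9.52 to 10.7 CPM in *Nae1* cKO nerves and 8.04 to 10.1 CPM in WT nerves and was not called. No Kv3 gene was tested, and *Kcnc1* had 0 to 2 counts in *Nae1* cKO nerves and 0 to 3 in WT nerves. The Kv4 genes *Kcnd1* and *Kcnd3* were not called.

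Of the inward rectifiers, *Kcnj10* and *Kcnj12* fell. *Kcnj10* encodes Kir4.1, the potassium uptake channel of glia. *Kcnj10* (ENSMUSG00000044708.5) had 39.1, 40.5, 37.5 and 47.1 CPM in *Nae1* cKO nerves K2, L1, L5 and L8, against 58.9, 124, 120.0 and 61.8 CPM in WT nerves K1, L3, L4 and L9. The WT nerves fell into a higher and a lower pair, and the lower pair was still above all *Nae1* cKO nerves. The log2 fold change was -1.15 ± 0.27 (SE, n = 4 nerves each, edgeR adjusted p = 0.0144), and without *Nae1* cKO nerve K2 it was -1.14 ± 0.35 (SE) and no longer called (edgeR adjusted p = 0.0622). By TPM the groups overlapped, with 3.63 to 7.21 TPM in *Nae1* cKO nerves and 6.41 to 16.3 TPM in WT nerves.

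*Kcnj12* (Kir2.2, a strong rectifier) had 1.87, 1.60, 1.29 and 1.19 CPM in *Nae1* cKO nerves, against 4.16, 2.61, 3.44 and 3.73 CPM in WT nerves. The groups did not overlap, and the log2 fold change was -1.23 ± 0.23 (SE, n = 4 nerves each, edgeR adjusted p = 0.00183). *Kcnj2* (Kir2.1) had 5.71 to 11.4 CPM in *Nae1* cKO nerves and 8.46 to 14.9 CPM in WT nerves. *Kcnj8* (Kir6.1, of mural cells) had 4.25 to 6.27 CPM in *Nae1* cKO nerves and 3.73 to 8.55 CPM in WT nerves. *Kcnj13* (Kir7.1) had 3.26 to 8.06 CPM in *Nae1* cKO nerves and 3.08 to 4.71 CPM in WT nerves. None of these last 3 was called. *Kcnj11* had 1 to 3 counts in *Nae1* cKO nerves and 0 to 11 in WT nerves and was not tested.

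The K2P leak channels split, with *Kcnk2* and *Kcnk10* higher and *Kcnk1* and *Kcnk5* lower. *Kcnk2* and *Kcnk10* encode the closely related mechanosensitive channels TREK1 and TREK2. *Kcnk2* had 19.0, 24.7, 25.8 and 31.4 CPM in *Nae1* cKO nerves, against 10.1, 13.9, 13.1 and 12.4 CPM in WT nerves. In CPM every *Nae1* cKO nerve lay above every WT nerve (log2 fold change 1.03 ± 0.15, SE, n = 4 nerves each, edgeR adjusted p = 0.000387). By TPM the groups overlapped slightly, with *Nae1* cKO nerve K2 at 4.09 and WT nerve L4 at 4.11. *Kcnk10* was rarer, at 13 to 22 counts in *Nae1* cKO nerves and 6 to 11 counts in WT nerves. It was called at the edge of the threshold (log2 fold change 0.96 ± 0.31, SE, edgeR adjusted p = 0.0404), and 14 of 19 alternative fits did not call it, including the omission of any nerve but *Nae1* cKO nerve L5, with adjusted p of 0.0178 to 0.50 over all 19.

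*Kcnk5* (TASK2, an alkaline-activated channel) had 11.6, 15.5, 15.7 and 15.6 CPM in *Nae1* cKO nerves, against 26.4, 28.4, 24.1 and 26.2 CPM in WT nerves. In CPM the groups were clearly apart, and the log2 fold change was -0.85 ± 0.12 (SE, n = 4 nerves each, edgeR adjusted p = 0.000213). By TPM they were closer, at 1.74 to 4.49 in *Nae1* cKO nerves and 4.67 to 5.91 in WT nerves. Limma on log2(TPM + 1) and log2(TPM + 0.1) did not call *Kcnk5*. *Kcnk1* (TWIK1) had 45.3, 23.9, 33.7 and 31.4 CPM in *Nae1* cKO nerves, against 64.1, 41.3, 61.9 and 68.6 CPM in WT nerves. *Nae1* cKO nerve K2 lay above WT nerve L3. The log2 fold change was -0.81 ± 0.20 (SE, edgeR adjusted p = 0.0143), and without WT nerves K1 and L4 it was -0.72 ± 0.27 (SE) and no longer called (edgeR adjusted p = 0.136). *Kcnk4* (TRAAK), known at nodes, had 1 to 3 counts in *Nae1* cKO nerves and 2 to 5 in WT nerves. *Kcnk9*, *Kcnk12*, *Kcnk15* and *Kcnk16* had no counts in any nerve.

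Accessory subunits of potassium channels changed in both directions. *Kcnip2* (KChIP2, a calcium-binding partner of Kv4 channels) had 7, 4, 6 and 6 counts in *Nae1* cKO nerves, against 14, 20, 15 and 17 counts in WT nerves. These counts did not overlap (log2 fold change -1.57 ± 0.32, SE, n = 4 nerves each, edgeR adjusted p = 0.00295). *Kcnip4* was not called. *Kcnab1* (Kv beta 1, a cytoplasmic partner of Kv1) had 10.1 to 10.5 CPM in *Nae1* cKO nerves and 12.5 to 14.5 CPM in WT nerves. This small difference exceeded a narrow spread (log2 fold change -0.39 ± 0.11, SE, edgeR adjusted p = 0.0201), but 9 of 20 alternative fits did not call it, among them those without *Nae1* cKO nerve L5, WT nerve L4 or WT nerve L9. *Kcnab2* (Kv beta 2) had 8.43 to 11.4 CPM in *Nae1* cKO nerves and 8.55 to 10.5 CPM in WT nerves and was not called. *Kcne1l*, a single-pass subunit of the KCNE family, had 28, 11, 19 and 27 counts in *Nae1* cKO nerves, against 9, 5, 6 and 11 in WT nerves (log2 fold change 1.37 ± 0.39, SE, edgeR adjusted p = 0.022). Its groups overlapped in CPM, and 5 of 19 alternative fits did not call it, among them those without *Nae1* cKO nerve L8, WT nerve L3 or WT nerve L4.

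By TPM, a few genes held most of the channel RNA. The 5 genes with the highest mean TPM over the 8 nerves were taken as a fixed set. They made up 64.7% to 71.6% of the channel TPM in *Nae1* cKO nerves and 62.3% to 66.3% in WT nerves. This set leaves out *Scn3b*, which was 4th in WT nerves, so it is not the top 5 of each nerve. The sum over all channel genes was 257.9 to 358.6 TPM in *Nae1* cKO nerves and 274.4 to 350.9 TPM in WT nerves. *Kcna1* led with a mean of 82.2 TPM over the 8 nerves, followed by *Kcna2* (41.7), *Scn7a* (31.8), *Kcna6* (26.4), *Kcnmb4* (22.0), *Scn3b* (19.5), *Kcnk1* (16.7), *Kcnj10* (8.70), *Kcnk2* (5.74) and *Kcnh8* (4.63). This order pools the genotypes. *Scn3b* was 7th in *Nae1* cKO nerves (12.1 TPM) and 4th in WT nerves (26.8 TPM), and *Kcnk2* was 8th in *Nae1* cKO nerves (8.11 TPM) and 11th in WT nerves (3.38 TPM). The lowest *Kcna1* value, 60.7 TPM in WT nerve L3, lay above the highest *Kcna2* value, 54.1 TPM in WT nerve L9, while each later neighbour overlapped with the one before it. At the other end, 70 of the 107 genes stayed below 1 TPM in every nerve. Nerve K2 had the highest CPM but the lowest TPM of *Kcna1* among the *Nae1* cKO nerves (77.7 TPM, against 82.8 to 106.9 TPM in the other 3), so the position of that nerve depends on the unit.

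**Figure D4:**
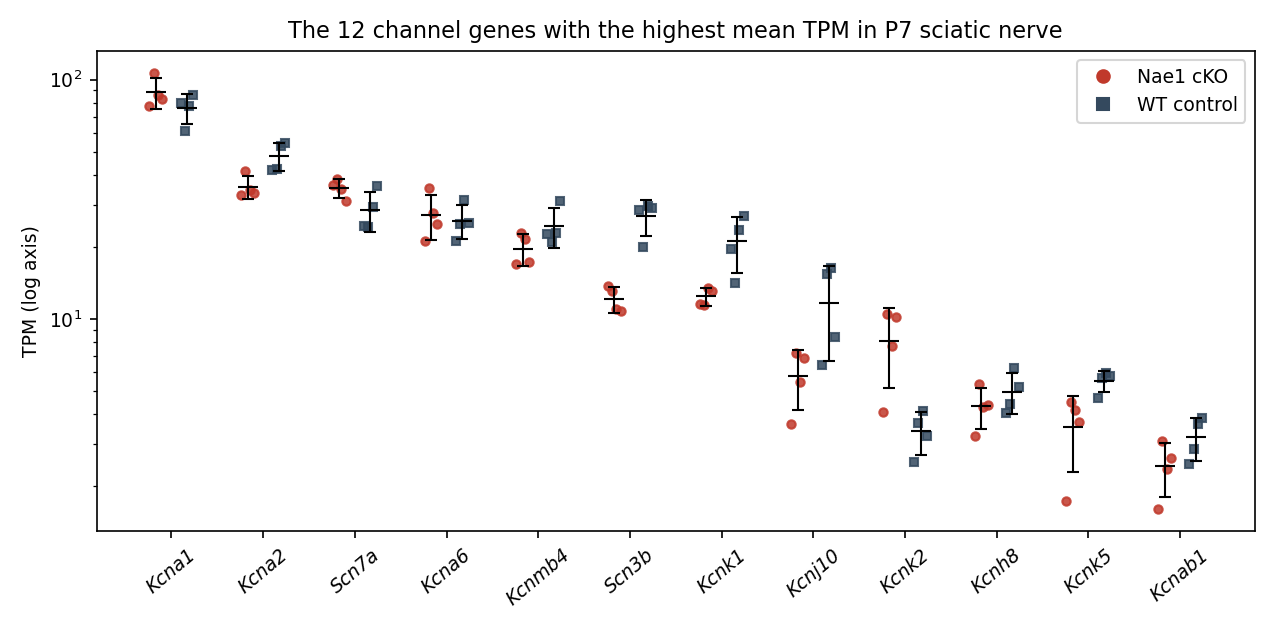
TPM per nerve, on a log axis, of the 12 channel genes with the highest mean over the 8 nerves, *Nae1* cKO (circles, left) and WT (squares, right), with the mean and SD in black (n = 4 nerves each). *Kcna1* stands above the rest, and *Kcna2*, *Scn3b*, *Kcnk1* and *Kcnk5* lie lower in *Nae1* cKO than in WT nerves without overlap.

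Genes that work with these channels were described from 3 lists. Node partners are the adhesion, scaffold and cytoskeletal genes of the node and its flanks. Of 26 listed, 23 were tested, 2 were higher and 9 lower (8.70% and 39.1%, against 14.1% and 12.3% of all genes), with a median log2 fold change of -0.22 against 0.01 for all genes. The paranodal adhesion gene *Cntn1* had 24.9 ± 2.87 CPM in *Nae1* cKO nerves and 64.2 ± 9.84 CPM in WT nerves (SD, n = 4 each; edgeR adjusted p = 7.14e-06). *Nfasc*, which encodes the paranodal and nodal neurofascins, had 143 ± 14.01 CPM in *Nae1* cKO nerves and 282 ± 58.6 CPM in WT nerves (edgeR adjusted p = 0.000229). The scaffold genes of the 4.1 family differed, with *Epb41l2* at 652 ± 54.7 CPM in *Nae1* cKO nerves and 1187 ± 119 CPM in WT nerves, and *Epb41l3* at 150.1 ± 9.43 CPM in *Nae1* cKO nerves and 99.3 ± 8.15 CPM in WT nerves. *Cntnap2* and *Cntn2*, whose proteins hold Kv1 channels at the juxtaparanode, were below the filter.

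Ion transport genes comprise the sodium pump, cotransporters, exchangers and HCN and leak channels. Of 17 tested out of 20, 2 were higher and 5 lower (11.8% and 29.4%, against the same 14.1% and 12.3%), with a median log2 fold change of -0.07. The beta subunits of the sodium pump moved apart. *Atp1b1* had 11.5 ± 1.16 CPM in *Nae1* cKO nerves and 4.41 ± 0.565 CPM in WT nerves (SD, n = 4 each, log2 fold change 1.39, edgeR adjusted p = 2.85e-05). *Atp1b3* had 102 ± 7.46 CPM in *Nae1* cKO nerves and 133 ± 11.1 CPM in WT nerves (log2 fold change -0.38, edgeR adjusted p = 0.00501). The third list, of channel regulators, held fibroblast growth factor homologous factors, NEDD4 ligases and partners of BK, Kv4 and KATP channels. Of its 14 genes 8 were tested, and edgeR called 0 higher and 0 lower, although 4 (*Fgf11*, *Fgf13*, *Nedd4l* and *Lrrc55*) had an unadjusted p under 0.05. DESeq2 and limma-voom also called 0.

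Channel genes that overlap other annotated genes can share reads with them. The libraries were stranded, but the strand setting of the counting is not given in the sources used here. Among the called genes, *Kcna3*, *Kcnab1*, *Kcnh7*, *Kcnk1*, *Kcnk2*, *Kcnk10*, *Kcnma1*, *Kcnmb1*, *Scn3b* and *Scn9a* overlap at least 1 annotated gene, mostly noncoding. Neuronal markers in the same nerves were low. *Rbfox3* was at 0 in every nerve. Of 8 markers listed, 6 were tested, with a median log2 fold change of -0.41. *Tubb3* and *Snap25* were higher in *Nae1* cKO nerves, while *Nefl* (log2 fold change -1.04), *Prph* (-0.64), *Nefm* (-0.56) and *Stmn2* (-0.26) were not called. The summed list was at 20.1 to 29.1 CPM in *Nae1* cKO nerves and 15.8 to 23.9 CPM in WT nerves.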

How the data were processed

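Stranded libraries of total RNA, depleted of ribosomal RNA, were made from sciatic nerves. The files deposited by the authors are RSEM gene tables, 1 per nerve, that give expected counts (estimated fragments per gene, unscaled), TPM and FPKM (which the authors scaled for library size and transcript length). STAR, RSEM, FastQC 0.11.5 and the build GRCm38 are listed in the submitters' processing notes. The paper's methods name other tools, which need aligned reads and were not repeated. All 110 members matched GENCODE vM21 by identifier, which gave positions.

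Expected counts were rounded, genes were kept by filterByExpr and libraries scaled by TMM, and genotypes were compared over all 8 nerves with edgeR 4.0.16 (quasi-likelihood, robust) in R 4.3.3, with Benjamini-Hochberg adjustment over 17090 genes. The common biological coefficient of variation was 0.158. The SE of a log2 fold change was derived from that change and the F statistic of its test. The 95% intervals are a normal approximation from this SE and can be narrower than the test implies. The script was checked on simulated counts. Within each group, replicate libraries differed by more than sampling noise (chi-square per gene 4.11 to 57.9). Pairs with *Nae1* cKO nerve K2 stood highest, at 43.1 to 57.9. The other *Nae1* cKO pairs were at 4.11 to 9.88 and the WT pairs at 12.6 to 25.9. Single values were also compared by exact two-sided permutation tests. Alternatives were DESeq2 1.42.0, limma-voom (limma 3.58.1), other scalings and filters, limma on log2(TPM + 1), log2(TPM + 0.1) and log2(FPKM + 1), which understate changes of low genes, the letter K or L of the sample names, and nerves left out. Sequences came from RefSeq (GRCm38.p6), where 80 of the 110 members had a window.

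Genes were named by a rule: members called over 2-fold, up to 3 per subfamily with the smallest adjusted p, the 10 with the highest mean TPM, channels known from myelinated nerve, members with 1 library far from its group, and up to 4 genes of each other list. Some genes that the rule gives are not reported here. Further genes were named after their values were seen. The members, lists and rule were chosen with earlier results of these data known.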

Additional observations from a re-analysis of the deposited data

Results flagged for a closer look

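In 8 of 108 groups of 4 nerves (each tested channel gene in each genotype), 1 nerve lay far from the other 3 by Dixon's criterion, which chance meets in about 1 of 20 groups. In 7 of the 8 this was *Nae1* cKO nerve K2, which also stood apart from its group over the genes tested as a whole. It was high for *Kcna1* (605.8 CPM, while the rest of its group lay at 409.7 to 434.1), *Kcna2* (760.8 CPM, against 496.2 to 512.3), *Scn7a* (531.1 CPM, against 290.4 to 328.9), *Scn3b* (92.09 CPM, against 47.95 to 50.85), *Scn2a* (10.22 CPM, against 6.342 to 6.688) and *Kcnip4* (4.627 CPM, against 3.135 to 3.206). It was low for *Kcnk5* (11.57 CPM, against 15.54 to 15.7). The remaining one was WT nerve K1, high for *Kcnj2* (14.9 CPM, against 8.464 to 9.123 in the remaining WT nerves).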

How the results depend on the processing

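No paired analysis was run, because the genotypes share no replicate label. The letters K and L occur in both genotypes, and the labels do not say what they stand for. With the letter as a term, 10 channel genes were higher and 12 lower of 54 tested (40.7%), against 30.8% of all genes. All 21 called channel genes kept their direction in every alternative in which they were tested. In each such run 11 were called (*Kcna3*, *Kcng3*, *Kcnip2*, *Kcnj12*, *Kcnk2*, *Kcnma1*, *Kcnmb1*, *Kcnn4*, *Scn3b*, *Scn8a* and *Scn9a*). The other 10 lost the call at least once. Of the 11, *Kcna3*, *Kcng3*, *Kcnip2*, *Kcnma1* and *Kcnmb1* were not tested in the fit with at least 10 counts in every library. *Kcna3*, *Kcng3* and *Kcnip2* had passed the main filter only through the group in which they were high. Leaving out each nerve gave 8 to 10 channel genes higher, 10 to 13 lower and 12 to 17 over 2-fold. With at least 10 counts in every library, where fewer genes are tested, 4 channel genes were higher and 8 over 2-fold. With limma, 6 were lower on either TPM scale, and 2 passed 2-fold on log2(TPM + 1) and 5 on log2(FPKM + 1). Without WT nerves K1 and L4, with fewer samples, 6 were lower.

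Node partners higher, 2 as reported, were 1 with limma-voom, without the filter and without K1 and L4, 0 on either TPM scale, and 1 to 3 with 1 nerve left out. Node partners lower, 9 as reported, were 5 with library totals, 3 on either TPM scale and 4 on log2(FPKM + 1), and 7 to 12 with 1 nerve left out. Ion transport genes higher, 2 as reported, were 4 with library totals, 1 with limma-voom, on either TPM scale and without K1 and L4, and 1 to 2 with 1 nerve left out. Ion transport genes lower, 5 as reported, were 1 on either TPM scale and 3 on log2(FPKM + 1) and without K1 and L4. Channel regulators higher were 3 with library totals and 1 on log2(FPKM + 1), and lower 0 to 1 with 1 nerve left out. *Nae1* was no longer called on log2(TPM + 1) (-0.44) and log2(TPM + 0.1) (-0.46). Scaling by library totals moved the median of all genes to 0.16 on the log2 scale, and log2(TPM + 1) moved it to 0.10. Unless given with the value, the cause was not tested.

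Of the named genes without a call, 5 changed sign. *Kcna1* was at -0.056 without K2, so its range with 1 nerve left out was -0.06 to 0.19. *Kcna6* was at 0.055 with library totals and 0.069, 0.071 and 0.098 on log2(TPM + 1), log2(TPM + 0.1) and log2(FPKM + 1). *Scn2a* was at 0.0040 on log2(TPM + 0.1) and 0.019 on log2(FPKM + 1). *Scn3a* was at 0.0745, 0.31 and 0.099 on the same 3 scales, 0.043 in the L nerves alone, 0.31 without K1 and L4, and at -0.43 to 0.15 with 1 nerve left out. *Scn7a* was at -0.023 in the L nerves alone, -0.021 without K2, and at -0.02 to 0.32 with 1 nerve left out.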
